A study of Mus musculus with 16 samples.

Results

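The TRPV channels are the vanilloid branch of the transient receptor potential (TRP) cation channels, and the mouse genome holds 6 such genes, Trpv1 to Trpv6. The 6 genes were taken by symbol, as the whole family, from the 55367 genes counted in RNA-seq of mIMCD3 cells, a mouse cell line of inner medullary collecting duct origin. All 6 symbols were found in each of the 16 libraries, 2 for each of 8 conditions. WT cells had been given DMSO, the solvent, or SFN (sulforaphane, an activator of the transcription factor Nrf2) and were sampled under isosmotic conditions (WT DMSO isosmotic, WT SFN isosmotic), after 1 h of hyperosmotic stress (WT DMSO 1 h, WT SFN 1 h) and after 6 h (WT DMSO 6 h, WT SFN 6 h). Nrf2-/- cells, made with lentiviral CRISPR/Cas9 and drug selection, had been given SFN and were sampled under isosmotic conditions (Nrf2-/- SFN isosmotic) and after 1 h (Nrf2-/- SFN 1 h). For the isosmotic and 1 h libraries the pretreatment lasted 5 h with 10 μM SFN and the hyperosmotic medium had 600 mOsm. The labels give the 6 h libraries by name only, with neither the dose nor the osmolality. The same isosmotic libraries were the reference for 1 h and for 6 h, with none matched to each time. Effects of time and of hyperosmotic stress therefore cannot be told apart in those comparisons. Nrf2-/- cells given DMSO and Nrf2-/- cells at 6 h were not analysed here, so the effect of SFN was measured in WT cells only.

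TRPV channels are tetramers in the plasma membrane that let calcium and other cations into the cell. Trpv1 encodes the capsaicin receptor, known from pain-sensing neurons, and Trpv3 a warmth-sensitive channel known from keratinocytes. Trpv2 is known from immune cells, muscle and neurons. Trpv4 encodes a channel that responds to cell swelling and shear and is known from the epithelium of the distal nephron and collecting duct. Trpv5 and Trpv6 encode calcium-selective channels that carry out calcium uptake in the distal convoluted tubule and the intestine.

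On the GRCm38 (mm10) assembly with the GENCODE M21 annotation, Trpv1 (chr11:73234292-73261242) and Trpv3 (chr11:73267388-73300363) lie in a row on the plus strand, 6145 bases apart. Trpv2 (chr11:62574486-62600515, plus strand) is on the same chromosome, and Trpv4 (chr5:114622152-114658421, minus strand) stands alone. Trpv5 (chr6:41652173-41680769) and Trpv6 (chr6:41620624-41636405) are neighbours on the minus strand, 15767 bases apart. No other annotated gene among those counted overlaps any of the 6. Trpv5 and Trpv6 shared 54 stretches of 30 bases between their transcripts, so reads of this pair could have been split between them, and the other 14 pairs shared 0. The bases upstream of the 3 members that changed in WT cells by 6 h of stress follow, from RefSeq on GRCm38.p6, 5′ to 3′ on the strand of the gene and ending before the first annotated start. The Trpv1 stretch is chr11:73233899-73234148 (plus strand), the Trpv3 stretch is chr11:73267270-73267387 (plus strand) and the Trpv4 stretch is chr5:114658422-114658671 (minus strand). Capitals mark TGGAAA, the core of the osmotic response element to which the hyperosmotic stress factor NFAT5 binds.
Trpv1: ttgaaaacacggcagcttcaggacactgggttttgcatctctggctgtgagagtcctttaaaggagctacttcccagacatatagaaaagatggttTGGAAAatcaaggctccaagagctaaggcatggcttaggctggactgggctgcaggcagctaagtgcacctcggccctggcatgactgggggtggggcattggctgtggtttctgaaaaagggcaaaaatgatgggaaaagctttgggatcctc
Trpv3: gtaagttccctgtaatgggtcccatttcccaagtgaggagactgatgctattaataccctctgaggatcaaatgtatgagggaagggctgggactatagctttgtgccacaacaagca
Trpv4: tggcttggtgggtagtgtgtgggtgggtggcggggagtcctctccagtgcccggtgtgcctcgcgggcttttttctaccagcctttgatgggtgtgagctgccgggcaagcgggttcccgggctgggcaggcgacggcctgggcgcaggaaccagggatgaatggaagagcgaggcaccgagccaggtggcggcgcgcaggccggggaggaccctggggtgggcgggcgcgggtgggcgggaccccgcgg
In the full RefSeq windows, from 250 bases before to 50 bases after each start, TGGAAA on either strand occurred once for Trpv1, once at 1 of the 3 annotated starts of Trpv2 (chr11:62575377-62575676) and not for the other 4 members. TGGAAA occurred in 21.4% of all 32851 such windows. TGACNNNGC, the core of the antioxidant response element to which Nrf2 binds, occurred in none of the windows of the 6 members and in 12.4% of all windows. The Trpv4 window had 73.0% G or C and 30 CpG pairs, against 1 to 7 CpG pairs in the windows of the other members. A match of letters is a description of the window and not a site of binding.

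Total counts per library lay between 34484296 and 50774875, and 19509 of the 55367 genes passed the filter on low counts. Trpv1 to Trpv4 passed and Trpv5 and Trpv6 did not. Levels are given as CPM, the counts scaled to a common library size, after TMM normalization, which scales libraries by the bulk of their genes. Each comparison was a contrast in edgeR's quasi-likelihood fit over all 16 libraries, and a gene was called at a Benjamini-Hochberg adjusted p under 0.05. Replicates of Nrf2-/- SFN 1 h differed most, with a biological coefficient of variation of 0.348 against 0.0395 to 0.128 in the other 7 pairs. Nfe2l2, the gene of Nrf2, had 386 to 433 counts in the 4 Nrf2-/- libraries and 2496 to 5013 in the 12 WT libraries. The epithelial markers were high, with all 6 reaching 1 CPM, and of 8 markers of principal cells of the collecting duct 3 did so (Hoxb7, Gata3 and Scnn1a), with summed levels of 34.0 to 55.4 CPM, while the water channel Aqp2 had 0 to 11 counts. An even count made up 58.0% to 68.5% of counts from 1 to 10, and whether both reads of a pair were counted was not settled, so small counts may stand for fewer fragments. Intervals from counts cover counting error only.

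Trpv4 was by far the most abundant member, and the others were low or not detected. Trpv4 had 752 to 2268 counts in a library, Trpv2 had 15 to 81, Trpv1 0 to 162 and Trpv3 0 to 66. Per kb of exon, the scale on which genes can be compared, mean Trpv4 levels were 5.97 to 12.6 CPM per kb over the 8 conditions. The highest mean level of another member was 1.19 CPM per kb, for Trpv1 in WT DMSO 6 h. Trpv4 made up 98.6% of the summed CPM per kb of the 6 members in WT DMSO isosmotic cells and 84.2% in WT DMSO 6 h cells. Trpv5 had 2 counts in Nrf2-/- SFN 1 h replicate 1 and 0 in the other 15 libraries, and Trpv6 had 0 in all 16. A count of 0 allows up to 3 counts, which is 0.0556 to 0.0935 CPM at the depth of these libraries, so neither calcium-selective channel was detectable above that level. Of 4 markers of the distal convoluted and connecting tubule, where Trpv5 is known, 1 reached 1 CPM. That was Slc12a3, the thiazide-sensitive cotransporter, with 0 to 2 counts in the isosmotic libraries and 16 to 41 in the others, and it was called higher at 1 h and 6 h. Pvalb had 0 counts in all libraries and Calb1 at most 4.

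**Figure D1:**
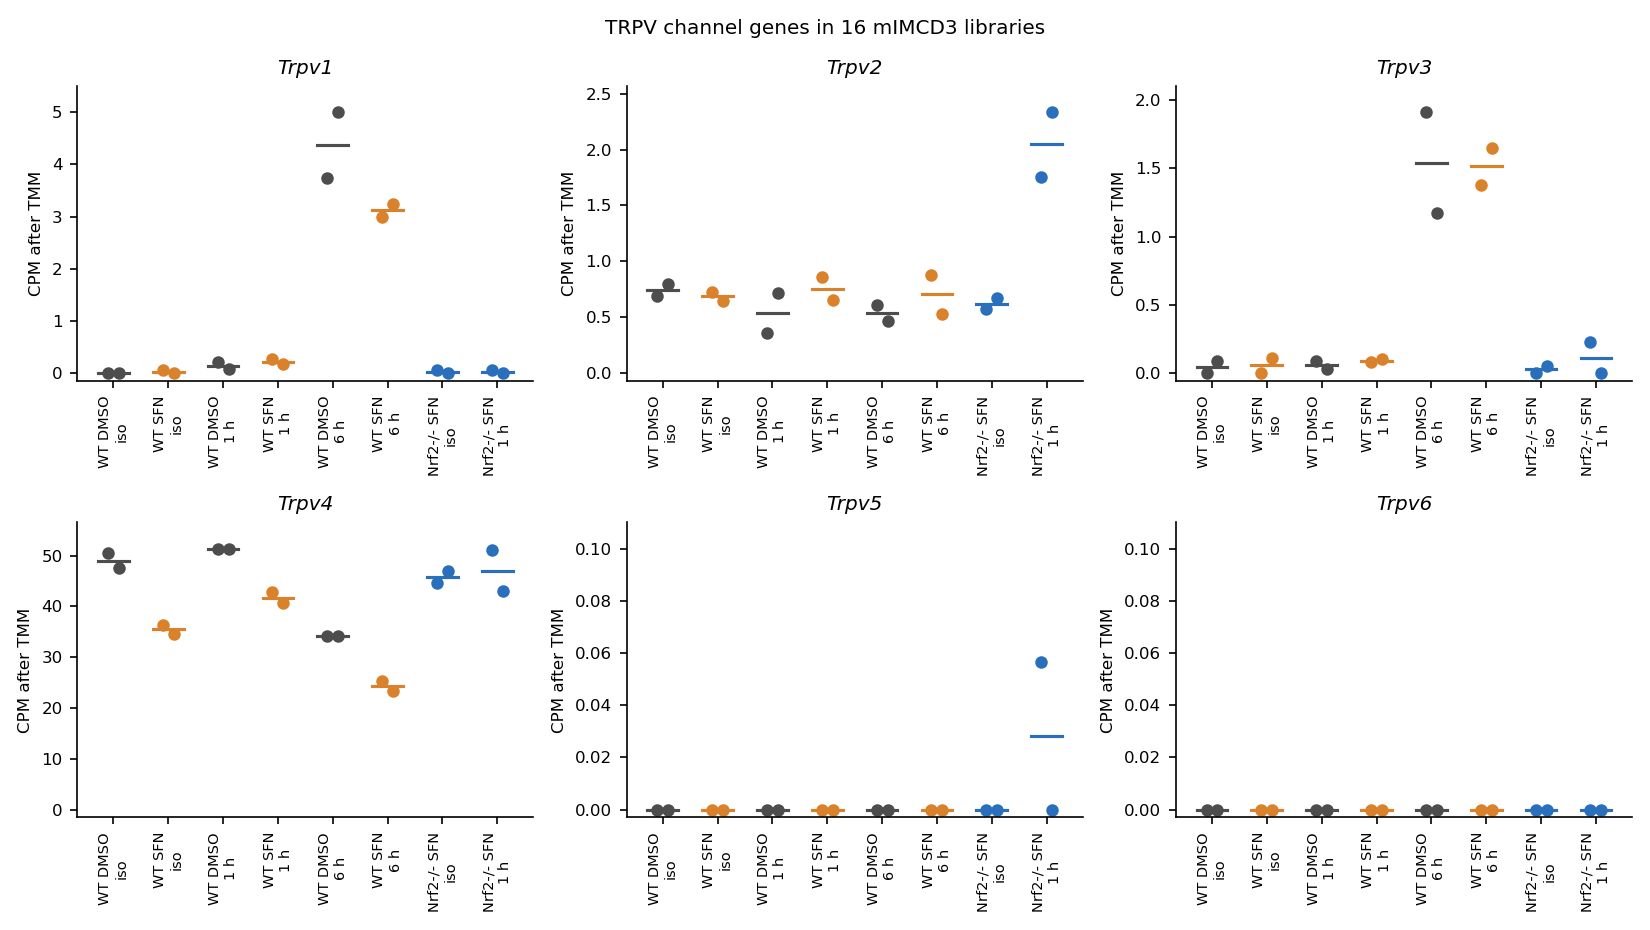
CPM after TMM normalization (vertical axis) of each of the 6 TRPV genes in the 16 libraries, grouped by condition (horizontal axis), with 1 point per library and a line at the mean of 2. Trpv4 lies between 23.4 and 51.4 CPM, Trpv1 and Trpv3 stand out in the 6 h libraries, Trpv2 in the Nrf2-/- SFN 1 h libraries, and Trpv5 and Trpv6 lie at or near 0.

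Among all 28 TRP channel genes, Trpv4 ranked first in WT DMSO isosmotic cells at 12.03 CPM per kb, ahead of Pkd2 (polycystin 2) at 9.32, Mcoln1 (a lysosomal channel) at 7.55 and Trpm7 (a magnesium-permeable channel) at 6.81. With the length of the longest transcript in place of all exons, Trpv4 had rank 3. In WT SFN 6 h cells, where its level was lowest, Trpv4 had rank 4 on either length. Trpv1 had no rank in WT DMSO isosmotic cells, where its count was 0, and ranked 7 of 28 in WT DMSO 6 h cells.

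**Figure D2:**
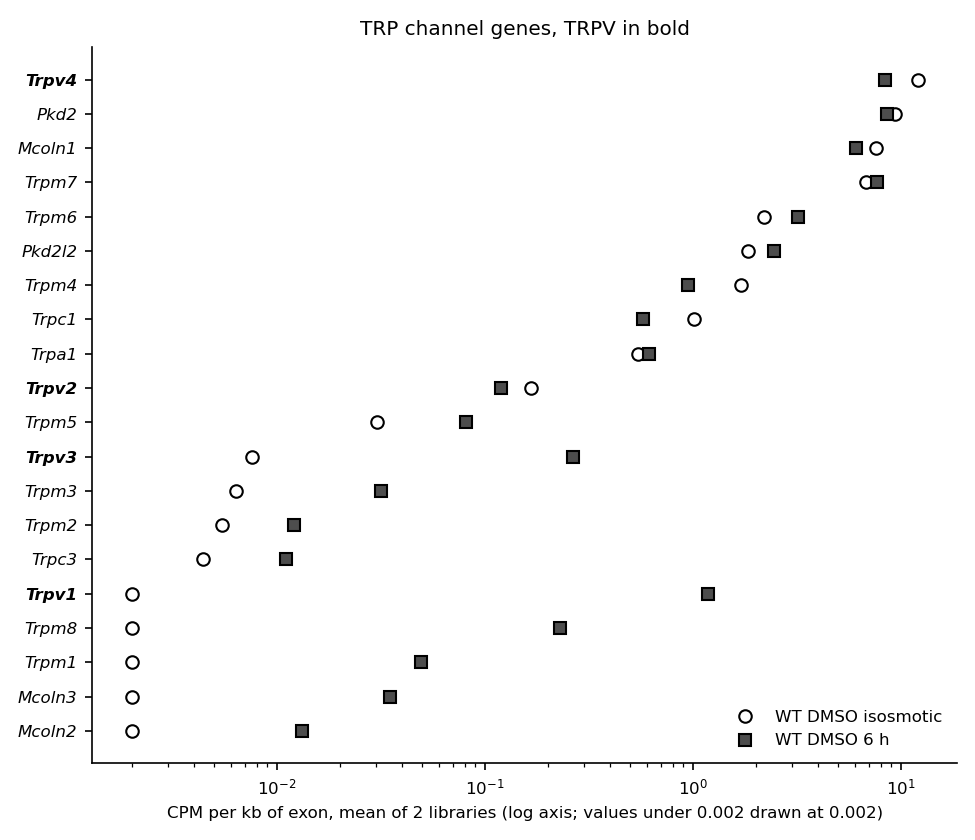
Mean CPM per kb of exon (horizontal log axis, 2 libraries each) of 20 of the 28 TRP channel genes in WT DMSO isosmotic cells (open circles) and WT DMSO 6 h cells (filled squares), with values under 0.002 drawn at 0.002 and the 8 genes below 0.01 in both conditions left out. Trpv4 is at the top under isosmotic conditions at 12.03, and Trpv1 moves from 0 to 1.19.

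All 4 tested members differed between some of the 8 conditions in the F-test of any difference, with adjusted p of 7.23e-06 for Trpv4, 3.56e-07 for Trpv1, 0.000365 for Trpv3 and 0.00624 for Trpv2 (edgeR's quasi-likelihood test). The same test called 74.5% of all genes. For Trpv2 the call rested on Nrf2-/- SFN 1 h replicate 2, without which the adjusted p was 0.147.

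Trpv4 was lower with SFN than with DMSO in WT cells over the 3 osmotic conditions. Under isosmotic conditions the DMSO libraries held 2124 and 2149 Trpv4 counts and the SFN libraries 1357 and 1864, or 49.1 ± 2.19 against 35.5 ± 1.30 CPM (mean ± SD, n = 2). After 1 h the DMSO libraries held 2268 and 1940 and the SFN libraries 1641 and 1629, or 51.4 ± 0.0558 against 41.8 ± 1.49 CPM (n = 2). After 6 h the DMSO libraries held 1179 and 1104 and the SFN libraries 860 and 752, or 34.1 ± 0.0521 against 24.3 ± 1.30 CPM (n = 2). In each of the 3 conditions both SFN libraries lay below both DMSO libraries, and the mean with SFN differed by -27.7%, -18.7% and -28.7%. For scale, groups did not overlap, in either direction, for 48.3%, 43.1% and 41.0% of all genes tested. Epithelial markers moved with Trpv4 under isosmotic conditions, where 3 of 6 (Cdh1, Krt8 and Krt18) were called lower with SFN, the list median was -0.49 on the log2 scale and the summed level went from 2421 to 1790 CPM. At 1 h and 6 h the list medians were 0.0059 and -0.020. Their part in the Trpv4 result was not tested.

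The mean of the 3 differences was a log2 fold change of -0.42 (standard error 0.061, 95% interval -0.54 to -0.30, adjusted p = 0.00253 by edgeR), and 1.15% of all genes were called in this contrast. With each library left out in turn it stayed between -0.44 and -0.40 and was called every time, with a highest adjusted p of 0.0207. The single conditions gave -0.47 under isosmotic conditions (standard error 0.11, adjusted p = 0.0266 by edgeR), where 2.84% of genes were called, -0.30 at 1 h (adjusted p = 1, 0.0923% called) and -0.49 at 6 h (adjusted p = 0.479, 0.041% called). The unadjusted p was 0.0126 at 1 h and 0.000417 at 6 h. The call under isosmotic conditions was lost, with adjusted p from 0.0555 to 0.259, when any of the 4 WT isosmotic, 4 WT 1 h or 2 WT DMSO 6 h libraries was left out. The call under isosmotic conditions was also lost without a filter on low counts (adjusted p = 0.0698) and without TMM factors (adjusted p = 0.0543). At 6 h, by contrast, Trpv4 was called in the fit of the 4 libraries compared (adjusted p = 0.0145), in that of the 12 WT libraries (adjusted p = 0.0186), with DESeq2 (adjusted p = 0.00363) and without Nrf2-/- SFN 1 h replicate 1 (adjusted p = 0.00937) or replicate 2 (adjusted p = 0.0102), as it was at 1 h in the fit of the 4 libraries compared (adjusted p = 0.00194). The SFN effect at 1 h differed from that under isosmotic conditions by 0.17 on the log2 scale (95% interval -0.12 to 0.46, adjusted p = 0.864), with 0.559% of genes called in this test of the difference.

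**Figure D3:**
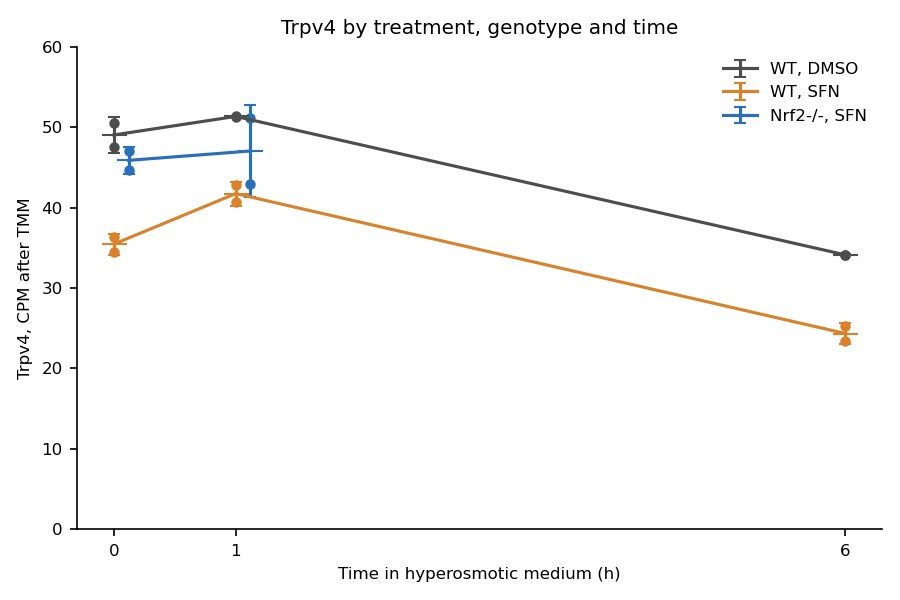
Trpv4 in CPM after TMM normalization (vertical axis, from 0) against the time in hyperosmotic medium in h (horizontal axis) for WT cells with DMSO, WT cells with SFN and Nrf2-/- cells with SFN. Points are libraries, short lines the mean of 2, joined over time, and bars the SD, and the WT SFN values lie below the WT DMSO values at each of the 3 times.

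Trpv4 fell by 6 h of hyperosmotic stress with either pretreatment, while at 1 h no change passed the test. From isosmotic conditions to 6 h the mean went from 49.1 to 34.1 CPM with DMSO (-30.4%) and from 35.5 to 24.3 CPM with SFN (-31.4%), and in both cases the 6 h libraries lay below the isosmotic ones. Groups did not overlap, in either direction, for 75.6% of all genes tested with DMSO and 76.3% with SFN. The log2 fold change was -0.52 with DMSO (standard error 0.11, adjusted p = 0.00095) and -0.54 with SFN (standard error 0.11, adjusted p = 0.000731, both by edgeR). At 6 h 45.9% and 47.6% of all genes were called with DMSO and SFN, so a call at 6 h was common. The 2 comparisons share no libraries, and both calls held with each of the 16 libraries left out in turn. The TMM factors were 0.903 to 0.911 in the 4 libraries at 6 h and 0.949 to 1.07 in the other 12. Without these factors the median of all genes moved by -0.17 with DMSO and -0.22 with SFN on the log2 scale at 6 h, and the Trpv4 values became -0.71 and -0.78. At 1 h the log2 fold change was 0.066 with DMSO (95% interval -0.14 to 0.27, adjusted p = 0.774 by edgeR) and 0.24 with SFN (95% interval 0.030 to 0.44, adjusted p = 0.204 by edgeR), where 11.2% and 9.52% of all genes were called.

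In SFN-treated cells, Trpv4 was higher in Nrf2-/- than in WT cells under isosmotic conditions. Nrf2-/- cells had 1572 and 1752 counts, or 45.9 ± 1.66 CPM (n = 2), against 35.5 ± 1.30 CPM in WT cells, and the libraries did not overlap. For scale, groups did not overlap, in either direction, for 66.2% of all genes tested. The log2 fold change was 0.37 (standard error 0.11, adjusted p = 0.0129 by edgeR), and 34.1% of all genes were called. The WT SFN isosmotic libraries are those of the SFN comparison above, so both comparisons rest on the same pair of libraries. The keratinocyte marker Krt14 had 5259 to 8657 counts in the 4 Nrf2-/- libraries, and the part of such marker differences in the Trpv4 value was not tested. The call was lost without WT SFN isosmotic replicate 1 (adjusted p = 0.0527), without replicate 2 (adjusted p = 0.0992), without Nrf2-/- SFN isosmotic replicate 2 (adjusted p = 0.0970) and with no filter on low counts (adjusted p = 0.0841). After 1 h Nrf2-/- cells had 1805 and 1491 counts, or 47.1 ± 5.74 CPM (n = 2), against 41.8 ± 1.49 in WT cells. This was a log2 fold change of 0.17 (95% interval -0.033 to 0.38, adjusted p = 0.242 by edgeR), where 31.5% of genes were called, and it became 0.29 with an adjusted p of 0.0359 without Nrf2-/- SFN 1 h replicate 2. Within Nrf2-/- cells, 1 h of stress gave 0.036 (95% interval -0.17 to 0.24, adjusted p = 0.913 by edgeR), with 7.17% of genes called, and its sign turned without TMM factors (-0.049). The response to 1 h of stress differed between Nrf2-/- and WT cells by -0.20 (95% interval -0.49 to 0.092, adjusted p = 0.875), and 0.123% of genes were called in that test of the difference.

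Trpv1 was near 0 until 6 h of hyperosmotic stress and was then clearly counted with either pretreatment. It had 0 and 0 counts in WT DMSO isosmotic, 2 and 0 in WT SFN isosmotic, 9 and 3 in WT DMSO 1 h and 10 and 7 in WT SFN 1 h. The DMSO libraries at 6 h held 129 and 162 counts and the SFN libraries 102 and 104. Every 6 h library thus lay above every other library. In CPM the 6 h levels were 4.37 ± 0.894 with DMSO and 3.12 ± 0.173 with SFN (n = 2). With DMSO the level at 6 h was 126 times a floor of 3 counts over both isosmotic libraries together, which held 0. This is not a 95% bound, since it leaves out the error of the 6 h counts. The adjusted p was 5.40e-06 from edgeR's quasi-likelihood test. With SFN the ratio of summed counts per depth was 142 (95% interval of counting 38.8 to 1181, 206 against 2 counts), with an adjusted p of 1.63e-05 from the same test. Both calls held with each library left out in turn and in every other setting that kept the gene.

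The rise stood in a background of many silent genes that gained counts. Of the 3153 genes tested that had at most 10 counts in each WT isosmotic library, as Trpv1 and Trpv3 had, 49.9% were called higher at 6 h with DMSO and 52.7% with SFN. At 1 h 27.4% and 23.4% of those genes were called higher with DMSO and SFN. Genes with so few isosmotic counts entered the test mostly through higher counts in other conditions, and Trpv1 and Trpv3 only through the 6 h libraries. The filter thus favoured these shares and the calls of a rise in advance. With DMSO, the 12 counts of Trpv1 at 1 h against 0 were 4.26 times the same floor per depth, again not a 95% bound. The adjusted p was 0.0457 from edgeR's quasi-likelihood test. That call was lost with 10 of the 16 libraries left out in turn (adjusted p from 0.0576 to 0.260 for the 2 WT DMSO 1 h, 2 WT DMSO isosmotic, 2 WT SFN 1 h and 4 WT 6 h libraries), with the counts halved (adjusted p = 0.120) and with the replicate number as a block (adjusted p = 0.0593). With SFN the 17 counts at 1 h against 2 gave a ratio of 9.90 (95% interval of counting 2.35 to 88.3) and an adjusted p of 0.0821 by edgeR and was not called, but it was called without a filter on low counts (adjusted p = 0.0160), with DESeq2 (0.0406), in the fit of the 12 WT libraries (0.0218) and without Nrf2-/- SFN 1 h replicate 1 (0.0259) or replicate 2 (0.0269). In Nrf2-/- cells Trpv1 had 2 and 0 counts under isosmotic conditions and 2 and 0 after 1 h. Against WT SFN 1 h, this was a ratio of 0.132 (95% interval of counting 0.0148 to 0.555, adjusted p = 0.0613 by edgeR). The adjusted p was 0.0416 with DESeq2, 0.0194 without a filter and 0.0170 without Nrf2-/- SFN 1 h replicate 1.

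SFN did not change Trpv1 beyond the error of the test at any time. At 6 h both SFN libraries lay below both DMSO libraries, with a log2 fold change of -0.49 (95% interval -1.48 to 0.51, adjusted p = 1 by edgeR) and a ratio of counts of 0.716 (95% interval of counting 0.596 to 0.859). Groups did not overlap, in either direction, for 41.0% of all genes tested in this comparison. At 1 h the ratio of counts was 1.48 (95% interval of counting 0.667 to 3.40), and the counts of the 2 pretreatments overlapped.

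Trpv3, the next gene downstream of Trpv1, rose at the same time. Its counts were 0 and 4 in WT DMSO isosmotic, 0 and 6 in WT SFN isosmotic, 4 and 1 in WT DMSO 1 h and 3 and 4 in WT SFN 1 h. The DMSO libraries at 6 h held 66 and 38 counts and the SFN libraries 47 and 53, above all other libraries. The levels at 6 h were 1.54 ± 0.523 and 1.52 ± 0.191 CPM (n = 2), a ratio to the isosmotic counts of 33.9 with DMSO (95% interval of counting 12.8 to 127) and 23.0 with SFN (95% interval of counting 10.2 to 64.1). The adjusted p was 0.00302 with DMSO and 0.00409 with SFN (edgeR's quasi-likelihood test), and both calls held with each library left out in turn. As said above, Trpv3 entered the test through its 6 h counts, which favoured these calls in advance. Between SFN and DMSO at 6 h the ratio of Trpv3 counts was 0.972 (95% interval of counting 0.732 to 1.29). In Nrf2-/- cells Trpv3 had 0 and 2 counts under isosmotic conditions and 8 and 0 after 1 h, and no comparison of these called it.

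Shpk, a sugar kinase gene that ends 9780 bases upstream of Trpv1 on the same strand, also rose by 6 h. Shpk went from 1.38 ± 0.430 to 4.69 ± 0.528 CPM with DMSO (n = 2, log2 fold change 1.76, adjusted p = 0.000365 by edgeR) and from 1.64 ± 0.190 to 4.49 ± 0.177 with SFN (n = 2, log2 fold change 1.46, adjusted p = 0.00143 by edgeR). Its 6 h counts, 149 and 164 with DMSO and 157 and 140 with SFN, were of the size of those of Trpv1. Aspa, which lies beyond Trpv3 on the other strand, had 0 to 10 counts. The part of Shpk transcription in the counts of Trpv1 and Trpv3 was not tested, since the files hold no position within a gene.

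**Figure D4:**
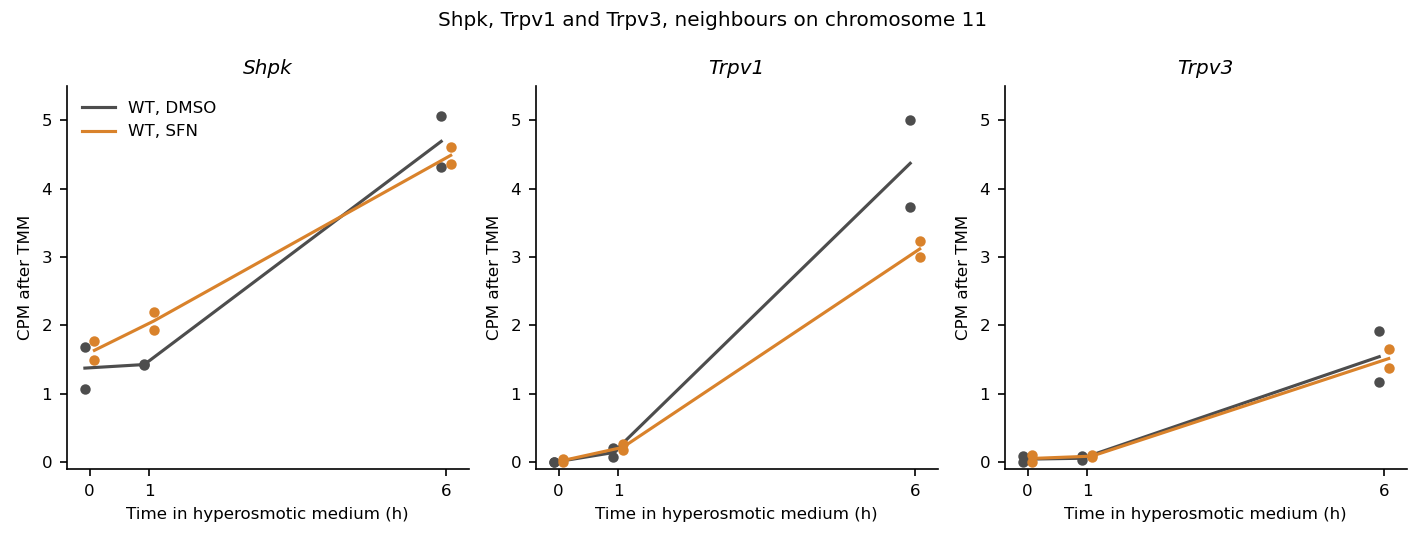
CPM after TMM normalization (vertical axis) of Shpk, Trpv1 and Trpv3, in their order on chromosome 11, against the time in hyperosmotic medium in h (horizontal axis) in WT cells with DMSO or SFN, with 1 point per library and lines through the means of 2. Trpv1 and Trpv3 stay under 0.3 CPM until 1 h and reach 4.37 and 1.54 CPM with DMSO at 6 h, while Shpk starts at 1.38 CPM.

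Cell type markers also differed at 6 h, as Trpv1, Trpv3 and Trpv4 did. Of 6 sensory neuron markers only Tubb3 reached 1 CPM, and it was called higher at 6 h with either pretreatment (log2 fold change 2.92 with DMSO), while Calca, Tac1, Scn10a, Rbfox3 and Snap25 had at most 7 counts in any library. Tubb3 was also called higher at 1 h, by 1.95 with DMSO and 1.58 with SFN on the log2 scale, where 11.2% and 9.52% of all genes were called. In Nrf2-/- against WT cells with SFN it was called higher by 2.50 under isosmotic conditions and 1.27 at 1 h, beside 34.1% and 31.5% of all genes. The summed level of the 6 was 0.829 CPM in WT DMSO isosmotic, 6.72 in WT DMSO 6 h and 8.51 to 10.8 CPM in Nrf2-/- cells. Of 4 keratinocyte markers 3 reached 1 CPM, Krt1 was at 0 in all libraries, and Krt14 was called higher at 6 h with either pretreatment. The keratinocyte markers summed to 13 CPM in WT DMSO isosmotic and 15.6 in WT DMSO 6 h cells. Their sum was 10.1 CPM in WT SFN isosmotic, 14.7 in WT SFN 6 h and 161 to 206 CPM in Nrf2-/- cells. Of the 3 tested, only Krt14 was called at 6 h. The median log2 fold change of these 3 was -0.21 with DMSO and 0.47 with SFN. The 4 macrophage markers summed to 8.10 CPM in WT DMSO isosmotic and 15.9 in WT DMSO 6 h cells, with Ptprc and Adgre1 called higher with either pretreatment and Csf1r with SFN only. The 4 proximal tubule markers summed to 10.3 and 24.3 CPM. The 3 tested (Cubn, Lrp2 and Slc5a2) were called higher with DMSO, and 2 of them (Cubn and Slc5a2) with SFN. The 6 epithelial markers summed to 2421 and 3975 CPM, with 4 called higher and 1 lower with DMSO and 5 higher with SFN. Slc12a3 and the intercalated cell marker Slc4a1 were also called higher with either pretreatment. The 8 principal cell markers summed to 41.7 CPM in WT DMSO isosmotic and 53.6 in WT DMSO 6 h cells. Of the 5 tested, Hoxb7 was called higher with either pretreatment and Aqp2 with SFN only. The fibroblast marker Col1a1 was called higher with DMSO only (log2 fold change 1.11). Beside these counts, 45.9% and 47.6% of all genes were called at 6 h with DMSO and SFN. The part of these shifts in the results at 6 h was not tested, and in bulk RNA fewer cells of a type and less RNA per cell cannot be told apart.

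Trpv2 was low in WT cells and higher in the 2 Nrf2-/- libraries taken after 1 h of stress. Its counts were 29 and 36 in WT DMSO isosmotic, 27 and 35 in WT SFN isosmotic, 16 and 27 in WT DMSO 1 h, 33 and 26 in WT SFN 1 h, 21 and 15 in WT DMSO 6 h and 30 and 17 in WT SFN 6 h. In Nrf2-/- cells it had 20 and 25 counts under isosmotic conditions and 62 and 81 after 1 h. The means of 7 conditions lay between 0.536 and 0.755 CPM, each overlapping the next in order, and Nrf2-/- SFN 1 h stood above all libraries at 2.05 ± 0.410 CPM (n = 2). Against Nrf2-/- SFN isosmotic the log2 fold change was 1.72 (standard error 0.43, adjusted p = 0.0249), and against WT SFN 1 h it was 1.43 (standard error 0.42, adjusted p = 0.0164, both by edgeR). These 2 comparisons share the Nrf2-/- SFN 1 h libraries, which differed most from each other of all pairs.

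The first call was lost without Nrf2-/- SFN 1 h replicate 2 (adjusted p = 0.0590), Nrf2-/- SFN isosmotic replicate 1 (0.153) or replicate 2 (0.128), and the second without Nrf2-/- SFN 1 h replicate 2 (0.113), WT SFN 1 h replicate 1 (0.0588) or replicate 2 (0.144). Both were lost in fits of the 4 libraries compared (adjusted p = 0.120 and 0.0767). The test of whether the response to 1 h of stress differed between Nrf2-/- and WT cells gave 1.58 on the log2 scale (standard error 0.60, unadjusted p = 0.0201, adjusted p = 0.548 by edgeR) and was not called. No SFN comparison called Trpv2, with a mean over the 3 osmotic conditions of 0.26 (95% interval -0.24 to 0.75, adjusted p = 0.760 by edgeR). The 4 macrophage markers summed to 4.58 CPM in Nrf2-/- SFN isosmotic, 7.35 in Nrf2-/- SFN 1 h and 8.46 in WT SFN 1 h cells, and Adgre1 was at 0 in all 6 libraries. Ptprc and Csf1r were called in Nrf2-/- against WT cells with SFN, 1 higher and 1 lower, under isosmotic conditions and after 1 h. In these comparisons 34.1% and 31.5% of all genes were called. The part of these markers in the Trpv2 result was not tested.

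**Figure D5:**
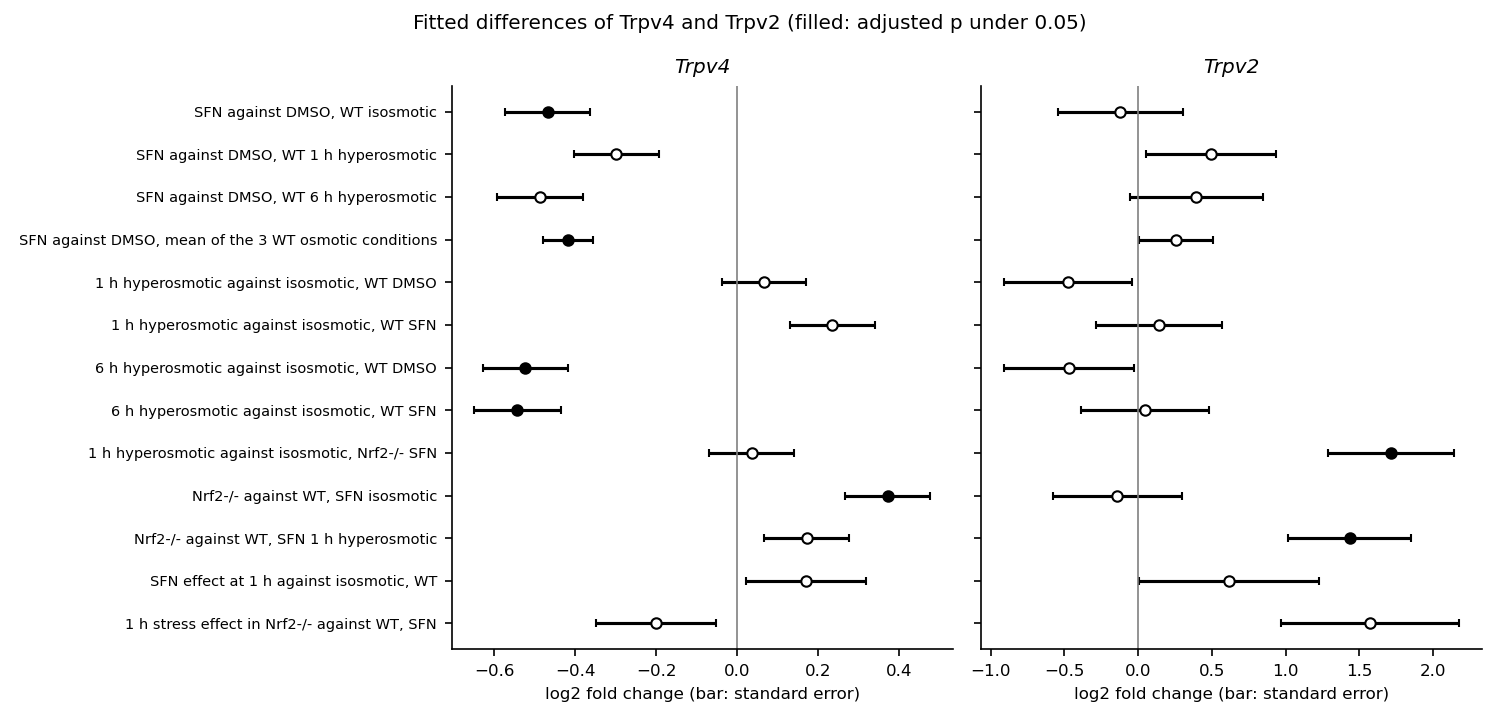
Fitted log2 fold changes (horizontal axis) of Trpv4 and Trpv2 in the 13 comparisons (vertical axis), with bars of 1 standard error and filled points for an adjusted p under 0.05 in edgeR's quasi-likelihood test. Trpv4 lies below 0 in the SFN and 6 h comparisons, from -0.30 to -0.54, and Trpv2 is filled for Nrf2-/- SFN 1 h against either reference.

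The other TRP channels did not share a single course. Of 22 other TRP genes, 13 were tested. At 6 h, 6 of the 13 were called with DMSO and 6 with SFN, 4 higher and 2 lower each time, beside 45.9% and 47.6% of all genes, and the list's median log2 fold change was 0.41 with DMSO and 0.22 with SFN, beside 0.048 and 0.085 over all genes. Trpm8, the menthol and cold receptor, had 0 and 0 counts in WT DMSO isosmotic and 56 and 18 in WT DMSO 6 h (adjusted p = 0.00176 by edgeR), and Trpm1 had 0 and 0 and then 30 and 19 (adjusted p = 0.000281 by edgeR). Like Trpv1 and Trpv3, Trpm8 and Trpm1 entered the test through the 6 h libraries, so the filter favoured these calls of a rise in advance. Trpm4, a sodium channel opened by calcium, fell from 18.4 ± 0.615 to 10.3 ± 0.299 CPM (n = 2, log2 fold change -0.84, adjusted p = 6.14e-05 by edgeR), and Trpc1 fell from 8.12 ± 0.672 to 4.60 ± 0.258 CPM (n = 2, log2 fold change -0.82, adjusted p = 0.00191 by edgeR). Trpa1, the receptor for electrophilic irritants, was at 2.79 ± 0.457 CPM in WT SFN isosmotic and 46.4 ± 4.34 CPM in Nrf2-/- SFN isosmotic cells (n = 2, log2 fold change 4.04, adjusted p = 2.48e-08 by edgeR).

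Of 18 binding partners and modulators of TRPV channels, 16 were tested. Pacsin3, which binds the Trpv4 channel, was at 30.6 ± 2.76 CPM in WT DMSO isosmotic and 16.4 ± 0.953 CPM in WT DMSO 6 h cells (n = 2) but was not called at 6 h (adjusted p = 0.0589 by edgeR), and its Nrf2-/- SFN 1 h libraries had 1046 and 325 counts. Map7, another Trpv4 partner, fell from 15.1 ± 1.11 to 8.45 ± 0.147 CPM by 6 h with DMSO (n = 2, log2 fold change -0.84, adjusted p = 0.000403 by edgeR). Akap5, a scaffold that links kinases to Trpv1, rose from 0.705 ± 0.216 to 4.84 ± 0.818 CPM (n = 2, log2 fold change 2.78, adjusted p = 2.40e-05 by edgeR). With DMSO at 6 h, 1 of the 16 rose and 5 fell, with a list median of -0.10, and with SFN 2 rose and 2 fell, with a median of 0.084, beside 45.9% and 47.6% of all genes called.

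Of 11 genes of epithelial calcium transport 7 were tested, and 4 rose at 6 h with either pretreatment. They were Atp2b1, a plasma membrane calcium pump, at 111 ± 11.8 and then 164 ± 6.95 CPM with DMSO (n = 2, adjusted p = 0.00145 by edgeR), Kl, Cyp24a1 and Cyp27b1. With so few genes, 4 of 7 and the 45.9% and 47.6% of all genes called at 6 h are close, and the same holds for the store-operated list that follows. The median log2 fold change of the 7 at 6 h was 0.57 with DMSO and 0.49 with SFN. Of 12 genes of store-operated entry and calcium release, all 12 were tested, and 5 rose and 1 fell at 6 h with DMSO, with a median of 0.32, while 3 rose and 2 fell with SFN, with a median of 0.042. Orai2, a pore subunit of store-operated channels, rose from 18.1 ± 1.72 to 93.4 ± 2.08 CPM (n = 2, log2 fold change 2.37, adjusted p = 1.13e-09 by edgeR), and Orai3 fell from 8.72 ± 0.642 to 4.16 ± 1.34 CPM (n = 2, log2 fold change -1.07, adjusted p = 0.000861 by edgeR). Of these 2 lists, only Itpr3, a receptor that releases calcium from internal stores, was called in an SFN comparison, higher under isosmotic conditions (log2 fold change 0.46, adjusted p = 0.0470 by edgeR).

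Over the 16 libraries, log2 CPM of Trpv1 and Trpv3 went together (Pearson's r = 0.90), and both ran opposite to Trpv4 (r = -0.73 for each). These are descriptions over libraries that share 8 conditions, in which the 4 libraries at 6 h stand apart. Among genes with a like pattern, Gal3st1 (r = 0.98), Hcn4 (r = 0.98) and Cdk5r1 (r = 0.98) were nearest to Trpv1, and Serpind1 (r = 0.98), Mettl25 (r = 0.96) and Adgrf2 (r = 0.96) to Trpv3. Nearest to Trpv4 were Wdr31 (r = 0.94), Aplf (r = 0.93) and Nmral1 (r = 0.93), and nearest to Trpv2 were Klrb1f (r = 0.88), Got2 (r = 0.84) and Kdm4b (r = 0.83), each over 16 libraries. Klrb1f and Serpind1 had mean counts of 1.69 and 6.06 a library.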

How the data were processed

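RNA-seq of mIMCD3 cells was analysed in 16 libraries. The authors mapped reads to mm10 (Hisat2 in the study's methods, Bowtie2 in the submitters' processing notes, with SAMtools and featureCounts) and deposited raw counts per gene symbol, without normalization. Versions, annotation and strand setting are not given in the sources used here. 1 label field names primary cells where all others name mIMCD3. The 5 lines without a gene name were left out.

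Counts were tested in R 4.3.3 with edgeR 4.0.16 (filterByExpr, TMM, robust glmQLFit and glmQLFTest, 1 coefficient for each of 8 conditions, Benjamini-Hochberg adjustment over 19509 genes). With 2 libraries a condition, an exact permutation test cannot give a two-sided p below 0.333. The study calls the replicates biological. All pairs differed by more than sampling noise. Log2 fold changes of genes with counts of 0 depend on the prior count, so count ratios or ratios to a floor of 3 counts are given. CPM per kb used the union of exons in GENCODE M21. The test was run on simulated counts, with known changes only in genes of higher mean counts than Trpv1, Trpv2 and Trpv3. All conditions had the same spread there, so the simulation does not cover these 3 members or the Nrf2-/- SFN 1 h libraries. DESeq2 1.42.0 and other settings were alternatives.

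Named genes are the 6 members, 4 lists, neighbours, marker genes and the 3 genes with the most similar pattern to each member by Pearson's r of log2 CPM. The members are a whole gene family and no measured value enters the rule that picks them, but the family and the lists were chosen with earlier results of these data known. Figures were drawn with matplotlib 3.10.9.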

Additional observations from a re-analysis of the deposited data

How the results depend on the processing

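Trpv4 was lower at 6 h, and lower with SFN over the 3 osmotic conditions, in every setting run, and Trpv1 and Trpv3 were higher at 6 h in every setting that tested them. Apart from the setting without a filter, Trpv1 and Trpv3 were tested because of their 6 h counts, which favoured this direction in advance. The number of members called changed in these cases, and the cause was not tested except where the setting drops genes or libraries. For SFN under isosmotic conditions 1 became 0 with no filter on low counts and with no TMM factors. For SFN at 1 h 0 became 1 with only the libraries compared. For SFN at 6 h 0 became 1 with DESeq2, with only the libraries compared, with only the 12 WT libraries and without the Nrf2-/- 1 h libraries. For 1 h of stress with DMSO 1 became 0 with at least 10 counts in every library, with only the libraries compared, with the counts halved and with the replicate block. With SFN 0 became 1 with DESeq2, with no filter, with the 12 WT libraries and without the Nrf2-/- 1 h libraries. At 6 h 3 became 1, with either pretreatment, with at least 10 counts in every library, which drops Trpv1 and Trpv3, and 4 became 2 for any difference. For 1 h of stress in Nrf2-/- cells 1 became 0 with only the libraries compared, and for Nrf2-/- against WT 1 became 0 under isosmotic conditions with no filter. After 1 h it became 2 with DESeq2 and with no filter and 0 with only the libraries compared.

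With each library left out in turn, members called ranged from 0 to 1 for SFN under isosmotic conditions and at 6 h, for 1 h of stress in all 3 backgrounds and for Nrf2-/- against WT under isosmotic conditions, from 0 to 2 after 1 h, from 3 to 4 for any difference and was 3 at 6 h. The Trpv4 log2 fold change for 1 h of stress in Nrf2-/- cells turned to -0.049 with no TMM factors and ranged from -0.10 to 0.16 with a library left out. With the replicate number as a block, Trpv1 after 1 h with DMSO had an adjusted p of 0.0593 and no other call on a member changed. Same-numbered samples deviated together little (r from -0.0794 to 0.123 over 28 pairs of conditions). These values cannot show whether same-numbered samples were handled together.

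Genes called over the whole table, with the range over the settings other than leaving out a library, were 555 (440 to 2875) for SFN under isosmotic conditions, 18 (13 to 809) at 1 h, 8 (2 to 106) at 6 h and 225 (171 to 1589) for their mean, 2186 (654 to 4334) and 1857 (535 to 3466) for 1 h of stress with DMSO and SFN, 1399 (7 to 2130) in Nrf2-/- cells, 6154 (1651 to 6650) for Nrf2-/- against WT after 1 h, and 109 (83 to 585) and 24 (0 to 160) for the tests of a difference in response between SFN and DMSO and between Nrf2-/- and WT. With a library left out the last count ranged from 8 to 2072 (2072 and 1226 without Nrf2-/- SFN 1 h replicate 1 and replicate 2), 1 h of stress in Nrf2-/- cells from 538 to 5079, Nrf2-/- against WT after 1 h from 3946 to 8917 and SFN under isosmotic conditions from 171 to 2742, each highest value without Nrf2-/- SFN 1 h replicate 1. The setting without TMM factors and that without the Nrf2-/- 1 h libraries were chosen after seeing the data. Fits of the 12 WT libraries were not run for Nrf2-/- comparisons. Counts near 3 limit what can be said of Trpv1 and Trpv3 before 6 h and of Trpv5 and Trpv6.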
